A study of Mus musculus with 48 samples.

Results

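Hippocampal microglia of pups reared under 2 forms of early-life adversity were compared with each other, gene by gene, across a panel of 478 transcripts. The labels name the groups LB and UPS only; as background, LB stands for rearing with limited bedding and nesting material, and UPS for rearing with added unpredictable stress. Members of the comparison were all genes that the authors' deposited table lists for this pair, 478 of the 478 genes in the series, chosen with no threshold on any value. The pups were Balbc/Byj mice at postnatal day 17, with 16 animals in LB (8 males and 8 females) and 16 in UPS (8 males and 8 females), so 32 of the 48 animals of the series entered it. The other 16 (8 males and 8 females) belonged to the control group CTL, of the same strain and age. No group carried a transgene, a mutation or a drug. Each library was 1 pup, and libraries were run in 4 batches of 12, each with 2 of every rearing group and sex. Pups of a group and sex were drawn from 4 to 5 litters per the labels; litter did not enter the fit here, so the p-values are too small to the extent that littermates are alike.

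Microglia are the resident macrophages of the brain. In the postnatal hippocampus they clear dying cells and surplus synapses, using complement, receptors for exposed phosphatidylserine and TREM2, and they sense nucleic acids and bacterial products through Toll-like receptors. Transforming growth factor beta and colony-stimulating factor signals keep their resting identity.

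The values are log2 ratios, p-values and adjusted p-values from the authors' deposited table, made with sexes pooled and batch as a covariate. A gene passed at a Benjamini-Hochberg adjusted p below 0.05 over the 478 genes. The headers do not say which group is the numerator, so signs are printed as deposited. If the later-named group stands over the first-named, a positive ratio means more transcript in UPS, and the reverse reading turns every sign at once. No values per library were used here, so counts and their depth are unknown. Intervals are 95% intervals recovered from each deposited ratio and its p.

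The authors' deposited table had 30 genes of 478 past the threshold, 6.28% of the panel. Positive ratios made up 22 of them (4.6% of the panel) and negative ratios 8 (1.67%), although over all genes 210 ratios were positive and 268 negative, with a median log2 ratio of -0.010. An unadjusted p below 0.05 was reached by 90 genes (18.8%), 47 positive and 43 negative, where 23.9 are expected with no difference. The positive genes included the 3 chains of complement C1q, the uptake receptors Mertk and Stab1, the Toll-like receptors Tlr7 and Tlr4, both measured phosphoinositide 3-kinase subunits and the microglial markers Tmem119, Tgfbr1 and Slco2b1. The negative genes were Il1b, Crot, Slc25a17, Tomm70a, Atp5g3, Ckb, Kcnk13 and Slc12a2. Most differences were small: the median size of the 30 log2 ratios was 0.18, the smallest was 0.091 (1.07-fold), and 22 of the 30 lay under 1.2-fold.

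**Figure D1:**
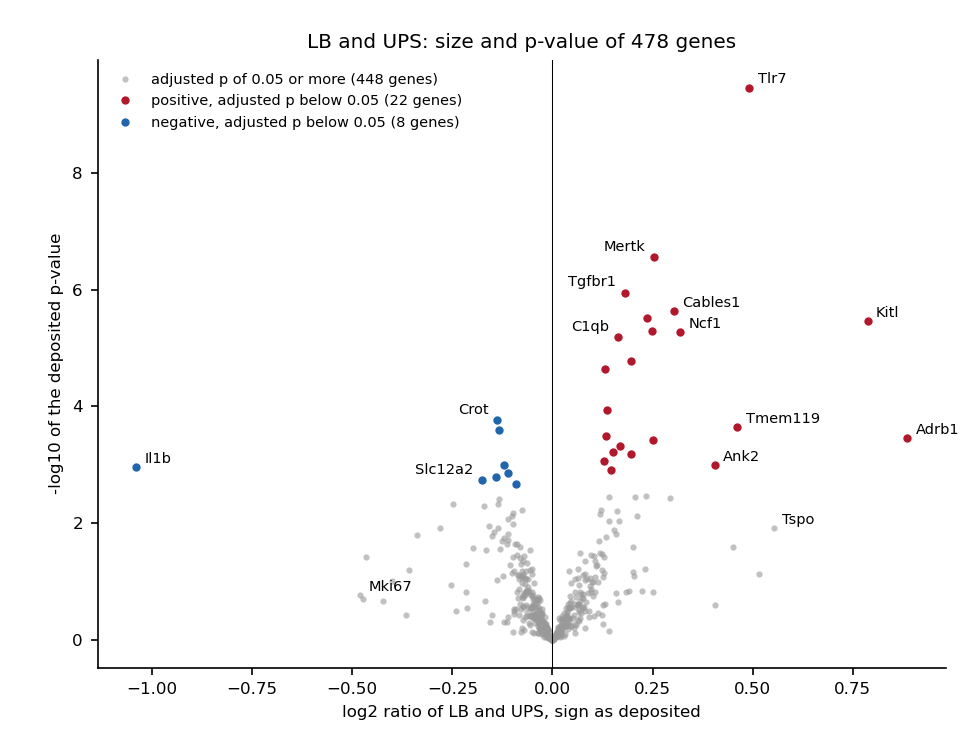
Each point is 1 of 478 genes, with the deposited log2 ratio of LB and UPS on the x axis and -log10 of the deposited p-value on the y axis. The 22 positive genes past the threshold are red and the 8 negative ones blue; Tlr7 stands highest, and Adrb1 (0.89) and Il1b (-1.04) lie farthest out on each side.

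C1q, assembled from 3 chains, binds synapses and dying cells and starts the classical complement cascade. In the authors' deposited table its chains had log2 ratios of 0.16 for C1qb (adjusted p = 0.000347), 0.13 for C1qa (adjusted p = 0.00101) and 0.13 for C1qc (adjusted p = 0.00956). The recovered intervals of the 3 chains overlapped one another, with bounds of 1.07 and 1.17-fold for C1qb, 1.05 and 1.14-fold for C1qa, and 1.05 and 1.15-fold for C1qc. C3ar1, the receptor of the complement fragment C3a, was at -0.051 (adjusted p = 0.667) and Itgam, the alpha chain of CR3, at 0.037 (adjusted p = 0.67) according to the authors' deposited table. The 3 C1q chains thus passed and these 2 complement receptor genes did not, and the difference between them was not tested. The complement gene C1ra also did not pass, at -0.047 (adjusted p = 0.894).

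C1qa, C1qb and C1qc follow one another in gene order on 1 chromosome of the RefSeq annotation of GRCm38.p6, and since the 3 chains had like ratios the promoter windows of C1qb and C1qc are shown. Each is the 250 bases before the annotated start in RefSeq, 5′ to 3′ on the gene's strand. Capitals mark the only match, on either strand, to GAGGAA, the core of the sequence that the microglial transcription factor PU.1 (gene Spi1) binds.
C1qb, chr4:136886201-136886450, minus strand: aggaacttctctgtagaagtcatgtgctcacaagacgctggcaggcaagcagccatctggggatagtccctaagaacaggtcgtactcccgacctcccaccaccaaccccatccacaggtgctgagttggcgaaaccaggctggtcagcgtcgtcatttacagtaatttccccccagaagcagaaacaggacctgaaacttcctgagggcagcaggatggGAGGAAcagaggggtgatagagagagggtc
C1qc, chr4:136892915-136893164, minus strand: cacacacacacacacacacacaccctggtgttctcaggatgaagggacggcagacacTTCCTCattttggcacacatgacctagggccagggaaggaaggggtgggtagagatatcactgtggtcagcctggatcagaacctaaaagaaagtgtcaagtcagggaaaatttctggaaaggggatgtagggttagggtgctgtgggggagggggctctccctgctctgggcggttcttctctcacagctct
In C1qb the match is on the gene's own strand, 30 bases before the start, and in C1qc it is on the opposite strand, 193 bases before it. GAGGAA was found on either strand in 23.3% of 32851 promoter windows of this length and in 23.9% of the 461 windows of panel genes. It was found in 9 of the 31 windows (29%) of the 23 genes past the threshold that had one. Spi1 itself stood at -0.020 (adjusted p = 0.673) per the authors' deposited table, with a recovered interval from 0.955-fold to 1.02-fold.

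Among receptors for apoptotic cells, Mertk, a tyrosine kinase that recognises phosphatidylserine through bridging proteins, had a log2 ratio of 0.25 (adjusted p = 6.67e-05); only Tlr7 had a smaller p in the authors' deposited table. Stab1, a scavenger receptor that binds phosphatidylserine directly, was at 0.20 (adjusted p = 0.0146). Of 6 uptake genes these 2 passed, beside 6.28% of the panel. The remaining 4 uptake genes did not pass: the related kinase Axl was at 0.080, the bridging ligands Pros1 and Gas6 at 0.024 and -0.021, and Elmo1, an adaptor that drives engulfment through Rac, at 0.057 in the authors' deposited table. The receptor Axl was measured loosely, with an interval from -0.24 to 0.40, whereas Pros1 lay between -0.058 and 0.11. Ncf1, a cytosolic subunit of the phagocyte oxidase, was at 0.32 (adjusted p = 0.000317) per the authors' deposited table. Sirpa, the receptor of the "do not eat me" signal, was at 0.12 (adjusted p = 0.0788) and its ligand Cd47 at -0.066 (adjusted p = 0.457). None of the Fc receptor genes Fcgr1, Fcgr4 and Fcgrt passed, and the authors' deposited table gave -0.025, 0.022 and 0.035.

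The TREM2 receptor complex and the kinases below it did not share one pattern. Trem2, the lipid-sensing receptor named in the series title, and its adaptor Tyrobp were both near 0, and the authors' deposited table gave 0.013 and 0.011. Their recovered intervals ended at 1.06-fold and 1.05-fold on the positive side. Pik3cb, a catalytic subunit of phosphoinositide 3-kinase, was at 0.25 (adjusted p = 0.000317) and Pik3r1, the regulatory subunit, at 0.17 (adjusted p = 0.0122) according to the authors' deposited table. The kinases further down were at 0.020 for Akt1 and 0.016 for Pdpk1, while Mtor was at 0.12 (adjusted p = 0.153). Of the 8 genes from phosphoinositide 3-kinase to mTOR, 2 passed, both positive, beside 4.6% of the panel, and the list's median was 0.018 beside -0.010 for the panel. Cd33, an inhibitory sialic acid receptor, was at -0.11 (adjusted p = 0.148) per the authors' deposited table.

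Tlr7, which senses single-stranded RNA in endosomes, had the smallest p of the panel. In the authors' deposited table it stood at a log2 ratio of 0.49, or 1.41-fold (adjusted p = 1.66e-07), with a recovered interval from 1.29-fold to 1.53-fold. Tlr4, the receptor of lipopolysaccharide, was at 0.15 (adjusted p = 0.0144), and its coreceptor Cd14 at 0.11 (adjusted p = 0.272). Tlr2, which binds bacterial lipopeptides, had a negative ratio of -0.14 (adjusted p = 0.111) and Tlr3, the receptor of double-stranded RNA, a positive one of 0.095 (adjusted p = 0.4) according to the authors' deposited table. The intervals of Tlr7 (0.37 to 0.61) and Tlr4 (0.068 to 0.23) do not overlap, so within this family the ratios of the 2 receptors that passed were of unequal size. The adaptor Ticam1 was at -0.021.

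Il1b, which encodes interleukin 1 beta, carried the largest ratio of all, and the authors' deposited table gave -1.04 on the log2 scale, or 0.487-fold (adjusted p = 0.0207). Its recovered interval was among the widest, from 0.321-fold to 0.736-fold. Il1a, the other interleukin 1 agonist, was at -0.25 (adjusted p = 0.0614), whereas Nlrp3, the inflammasome sensor upstream of interleukin 1 beta release, was at 0.17 (adjusted p = 0.0928), and Il18 was at 0.12 (adjusted p = 0.209) per the authors' deposited table. Tnf was at -0.11 with an interval from -0.45 to 0.22. Chemokine genes were too variable to bound tightly. Ccl3 was at -0.078 (-0.52 to 0.37), Ccl2 at -0.15 (-0.50 to 0.19), Ccl12 at -0.22 (-0.51 to 0.081) and Ccl6 at 0.20 (-0.025 to 0.43), and the authors' deposited table called none of them.

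Genes that respond to tissue dissociation were measured beside these cytokines. The immediate early genes Fos, Jun and Egr1 stood at 0.057, -0.077 and -0.24 in the authors' deposited table, with adjusted p of 0.896, 0.821 and 0.626. Rhob, a small GTPase induced by stress, was at 0.16 (adjusted p = 0.468). None of these 4 passed, beside 6.28% of the panel. Of the 4, 2 were positive and 2 negative, and their part in the Il1b ratio was not tested.

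Type I interferon and antigen presentation genes gave mostly negative ratios and no call. Over the panel 268 of 478 ratios were negative and 6.28% of genes passed, so these short lists are given as a description. Of 5 interferon genes 4 were negative in the authors' deposited table, with a median of -0.17: the induced genes Ifit3 and Mx1 were at -0.42 and -0.37. The intervals of Ifit3 (-1.10 to 0.26) and Mx1 (-1.18 to 0.45) were among the widest of the panel. Of 7 antigen presentation genes 6 were negative, among them H2-D1, a class I heavy chain (-0.25), Cd74, the class II invariant chain (-0.21), and B2m, the class I light chain (-0.073), with a list median of -0.073 in the authors' deposited table.

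Identity genes of microglia had ratios of both signs. Of 33 measured identity genes, 3 passed with a positive ratio and 1 with a negative one, 17 were positive and 16 negative in all, and the median was 0.013 in the authors' deposited table. The 4 genes that passed compare with 30 of 478 (6.28%) over the panel. For 16 of the 33 the whole recovered interval lay within 1.1-fold of no difference, as it did for 180 of the 478 genes (37.7%). Cx3cr1, the fractalkine receptor, was at -0.00063 (-0.056 to 0.055), and Csf1r, the receptor that microglia need to survive, at 0.039 (-0.028 to 0.11). Sall1, an identity transcription factor, was at -0.040 (-0.10 to 0.023) in the authors' deposited table. The purinergic receptors P2ry12 and P2ry13, which guide process movement towards nucleotides, were at -0.073 (adjusted p = 0.328) and -0.082 (adjusted p = 0.218).

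The 4 identity genes that passed were Tmem119, Tgfbr1, Slco2b1 and Kcnk13. Tmem119, a microglia-specific membrane protein, was at 0.46 or 1.38-fold (adjusted p = 0.0076) according to the authors' deposited table, with an interval from 1.17-fold to 1.62-fold. Tgfbr1, the type I receptor of transforming growth factor beta, was at 0.18 (adjusted p = 0.00018). The pathway's ligand Tgfb1 had the opposite sign, at -0.076 (adjusted p = 0.0726), while the feedback inhibitor Pmepa1 was at 0.14 (adjusted p = 0.0925) and the transducer Smad3 at 0.064 (adjusted p = 0.567) per the authors' deposited table. Slco2b1, an organic anion transporter, was at 0.14 (adjusted p = 0.00461). Kcnk13 encodes the THIK-1 potassium channel, which tunes surveillance and interleukin 1 beta release, and was at -0.11 (adjusted p = 0.0244).

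Genes of the disease-associated state, which microglia enter around plaques and during white matter development, had ratios of both signs. Of 17 measured, 0 passed with Benjamini-Hochberg adjustment, beside 6.28% of the panel, and Ctsd and Apoe had an unadjusted p below 0.05. In all 9 had positive and 8 negative ratios, with a median of 0.0036 in the authors' deposited table. Ctsd, a lysosomal protease, came nearest at 0.12 (adjusted p = 0.0726), followed by the lipid carrier Apoe at 0.13 (adjusted p = 0.218) and the growth factor Csf1 at -0.22 (adjusted p = 0.267). Spp1 was at -0.12 with an interval from -0.48 to 0.24, and Cd9 at 0.0036 with one from -0.095 to 0.10.

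**Figure D2:**
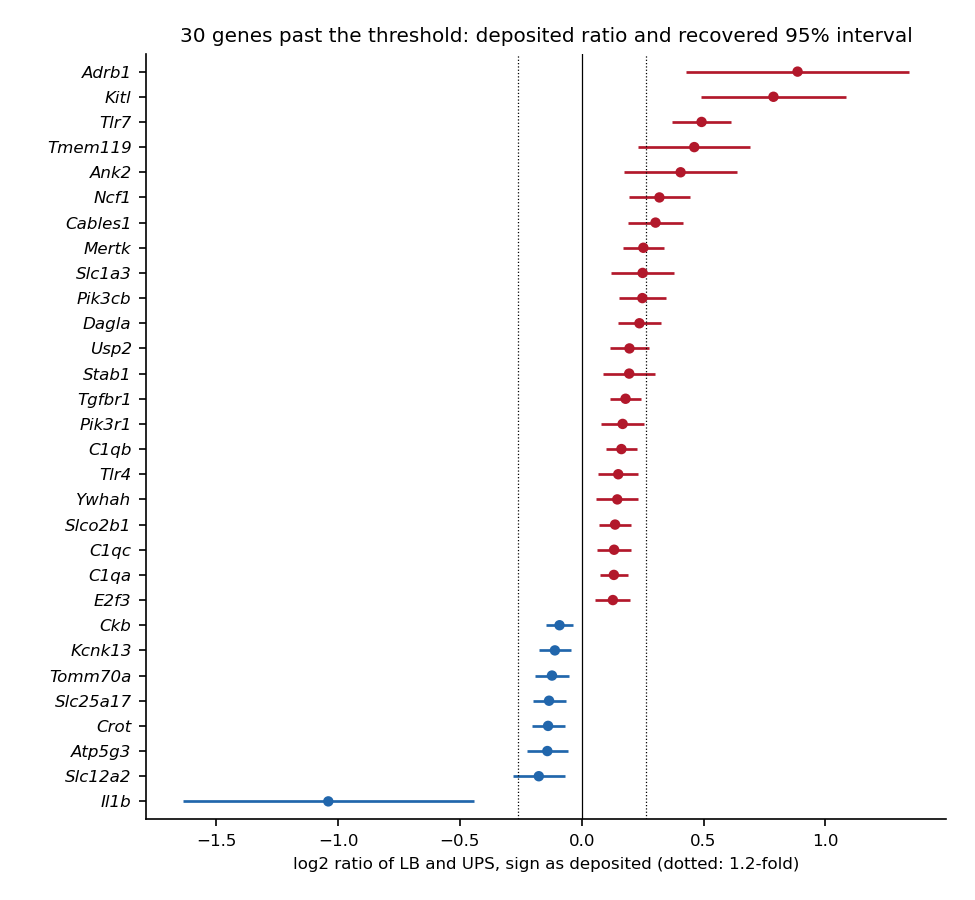
The 30 genes past the threshold are ordered by their deposited log2 ratio of LB and UPS (points), with bars for the recovered 95% interval and dotted lines at 1.2-fold. Adrb1, Kitl, Tmem119, Ank2 and Il1b have long bars, while the 3 C1q chains and most negative genes have short ones close to 0.

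The largest positive ratios were those of Adrb1 and Kitl. Adrb1, the beta-1 adrenergic receptor, was at 0.89 or 1.85-fold (adjusted p = 0.00983) according to the authors' deposited table, with an interval from 1.34-fold to 2.54-fold. Kitl, the ligand of the receptor KIT, was at 0.79 or 1.73-fold (adjusted p = 0.00028), with an interval from 1.40-fold to 2.12-fold. Together with Il1b these were the only 3 genes of the panel at 1.5-fold or more. Dagla, which synthesises the endocannabinoid 2-arachidonoylglycerol, was at 0.24 (adjusted p = 0.00028) per the authors' deposited table. The other nucleotide, adenosine and lipid mediator genes did not pass, and P2rx7, the ATP-gated channel, was bounded between -0.057 and 0.052. Among growth factor genes other than Kitl, the signalling genes Jak1, Jak2 and Stat3 were at -0.013, -0.025 and 0.045 in the authors' deposited table.

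Transporters split by sign. Besides Slco2b1 and Kcnk13, Slc1a3, the glutamate transporter GLAST, was at 0.25 (adjusted p = 0.00995), Slc12a2, the sodium-potassium-chloride cotransporter NKCC1, at -0.18 (adjusted p = 0.0301), and Slc25a17, the peroxisomal cofactor carrier, at -0.13 (adjusted p = 0.00813) according to the authors' deposited table. Of 12 transporter and channel genes, 2 passed on the positive side and 3 on the negative side, beside 4.6% and 1.67% of all panel genes.

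Besides Il1b, Kcnk13, Slc12a2 and Slc25a17, 4 genes had negative ratios past the threshold. Crot, which moves medium-chain acyl groups out of peroxisomes as carnitine esters, was at -0.14 (adjusted p = 0.00628) per the authors' deposited table. Atp5g3, a membrane subunit of ATP synthase, was at -0.14 (adjusted p = 0.0277), Tomm70a, an import receptor of the outer mitochondrial membrane, at -0.12 (adjusted p = 0.0206), and Ckb, brain-type creatine kinase, at -0.091 (adjusted p = 0.0337). All 4 were under 1.2-fold. Close relatives in the same compartments did not pass: the peroxisomal enzymes Hsd17b4, Phyh and Scp2 were at 0.015, 0.015 and 0.030, the import proteins Tomm20 and Hspa9 at -0.026 and -0.040, and the ATP synthase subunits Atp5b and Atp5pb at 0.0039 and 0.018 in the authors' deposited table. The interval of Atp5pb, from 0.982-fold to 1.04-fold, was the narrowest of the panel. Ckb was lost when ratios were centred on the panel median (adjusted p = 0.0712). With the 3 tables adjusted together, Ckb (adjusted p = 0.0553) and Slc12a2 (adjusted p = 0.0525) missed the threshold.

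Genes of fatty acid activation and lipid efflux had opposite signs within 1 list. The acyl-CoA synthetases Acsl3 and Acsl4 were at -0.20 (adjusted p = 0.177) and -0.15 (adjusted p = 0.135), and the sterol exporter Abca1 and Apoe at 0.10 and 0.13 in the authors' deposited table. None of the 5 genes passed, beside 6.28% of the panel.

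Lysosomal and autophagy genes had medians near that of the panel. None of 12 lysosomal hydrolase genes, 11 lysosomal membrane and proton pump genes and 9 autophagy genes passed, beside 6.28% of the panel, with medians of 0.026, 0.0050 and 0.011 in the authors' deposited table. The interval lay within 1.1-fold for 6 of 12 hydrolase genes, 10 of 11 membrane and pump genes and 5 of 9 autophagy genes, beside 37.7% of the panel. Hydrolase ratios ran from -0.17 to 0.12, the latter that of Ctsd. An unadjusted p below 0.05 was reached in these groups by Ctsd, Atg5 and Prkag1, a subunit of AMP-activated kinase. Lamp2 was at 0.018 (-0.031 to 0.067) and Lamp1 at -0.012 (-0.073 to 0.048). Atg5, which is needed to build autophagosomes, came nearest to the threshold among autophagy genes, at -0.10 (adjusted p = 0.0809) according to the authors' deposited table.

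Protein turnover genes gave 1 call, among 8 proteasome and deubiquitinase genes, and none among 12 ubiquitin ligase and 8 tripartite motif genes. Over the panel 6.28% of genes passed and 268 of 478 ratios were negative. Usp2, a deubiquitinase, was at 0.20 (adjusted p = 0.000802), and Stambpl1, another deubiquitinase, at 0.14 (adjusted p = 0.0519) per the authors' deposited table. All 6 proteasome genes of the list had negative ratios and none passed, from -0.035 for Psmd6 to -0.098 for Psmd14 (adjusted p = 0.0778). The cullin and anaphase-promoting ligase genes had 8 negative and 4 positive ratios with a median of -0.041. The tripartite motif genes had 6 positive and 2 negative ratios with a median of 0.10, from Trim17 at -0.47 (adjusted p = 0.217) to Trim35 at 0.21 (adjusted p = 0.0519) according to the authors' deposited table.

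Signalling adaptors and cell cycle genes followed the same uneven course. Ywhah, 1 of 5 measured 14-3-3 adaptors, was at 0.15 (adjusted p = 0.023) per the authors' deposited table, whereas Ywhae, Ywhag, Ywhaq and Ywhaz had negative ratios between -0.079 and -0.011 and did not pass. Cables1, a cofactor of cyclin-dependent kinases, was at 0.30 (adjusted p = 0.000277) and E2f3, a transcription factor of S-phase entry, at 0.13 (adjusted p = 0.0189). Of 5 cell cycle genes these 2 passed, beside 6.28% of the panel. The proliferation markers Mki67 and Ccnb1 had negative ratios of -0.48 and -0.16 in the authors' deposited table, with intervals from -1.18 to 0.22 and from -0.61 to 0.30, so proliferation was poorly resolved.

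Markers of other cells were measured because a microglial sort can hold a few of them. Ank2, an ankyrin abundant in neurons, passed at 0.41 (adjusted p = 0.0206) according to the authors' deposited table, while Gad1, the marker of inhibitory neurons, was at 0.0029 with an interval from -0.27 to 0.28. Both measured astrocyte markers were positive, Slc1a3 (above) and Glul, glutamine synthetase, at 0.15 (adjusted p = 0.117). Of 4 oligodendrocyte lineage genes none passed, beside 6.28% of the panel. Cspg4, the NG2 proteoglycan, was at 0.45 (adjusted p = 0.176), Mag at 0.021 and Cnp at 0.0093 in the authors' deposited table. The vascular genes Pecam1 and Cd34 were at 0.068 and 0.018, and the granulocyte receptor Csf3r at 0.11 (adjusted p = 0.245). Klrd1, a natural killer cell receptor, was at -0.47 with an interval from -1.20 to 0.26. Stab1 and Apoe, both also abundant in border macrophages, were positive. The levels of these markers are unknown, and their part in the ratios of Slc1a3, Ank2 and Stab1 was not tested.

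**Figure D3:**
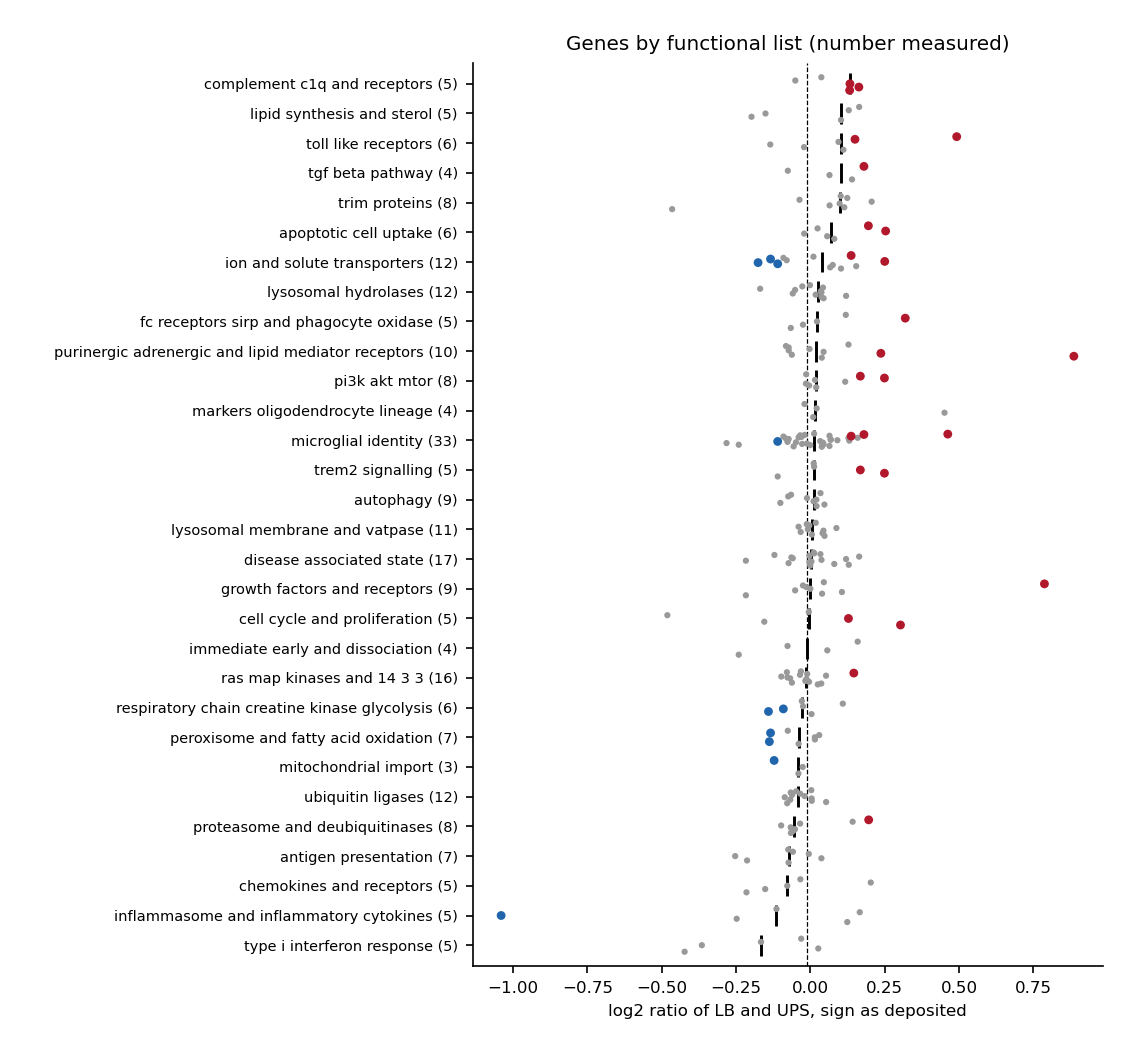
Each point is the deposited log2 ratio of LB and UPS of 1 gene, in rows for the 30 lists with at least 3 measured genes, with black ticks at the list median and a dashed line at the panel median of -0.010. Coloured points passed (red positive, blue negative); the complement row has 3 red points, and the rows of lysosomal membrane and ubiquitin ligase genes lie close to 0.

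All 30 genes that passed are on the 37 planned lists, of which the 30 with at least 3 measured genes are plotted. Ank2 is on a marker list with too few measured genes to be plotted. All 37 lists were drawn up with results of these data known. The share of a list that passed is therefore a description and not independent evidence. Of the 254 genes on none of the 37 lists 103 had positive and 151 negative ratios in the authors' deposited table.

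A further 18 genes had an adjusted p from 0.05 to below 0.1, 10 positive and 8 negative. Besides those named above they were Pmp22, a myelin and epithelial membrane protein (0.23), Plxnb3, a semaphorin receptor (0.29), and Ranbp9, a scaffold protein (-0.13), each with an adjusted p of 0.0519 in the authors' deposited table. They also held Ip6k2, an inositol hexakisphosphate kinase (-0.14, adjusted p = 0.0614), Il21r, the interleukin 21 receptor (-0.17, adjusted p = 0.0635), and Gprasp1, a sorting protein of G protein-coupled receptors (0.16, adjusted p = 0.0737). Hsp90ab1, a chaperone, was at 0.21 (adjusted p = 0.0809) and Tln2, an integrin-linking talin, at -0.11 (adjusted p = 0.0894) per the authors' deposited table.

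Size and certainty went together only in part. Of 22 genes (4.6%) at 1.2-fold or more in either direction, 8 passed and 14 did not. Over the panel 30 of 478 genes passed (6.28%), and all 3 genes at 1.5-fold or more did. The largest positive ratio that did not pass was that of Tspo, the mitochondrial translocator protein used as a marker of reactive microglia, at 0.55 (adjusted p = 0.111) with an interval from 1.09-fold to 1.97-fold. Sh2d1a, a lymphocyte signalling adaptor, was at 0.52 (-0.052 to 1.09) and Gabra5, a GABA receptor subunit, at 0.41 (-0.31 to 1.12) in the authors' deposited table. Nes, an intermediate filament of progenitors, was at -0.40 (-0.88 to 0.078), and Gpr84, a fatty acid receptor of activated microglia, at -0.28 (adjusted p = 0.111). For 380 genes (79.5%) the interval lay within 1.2-fold, 15 of them past the threshold. For 24 genes it reached beyond 1.5-fold. The median half-width of the interval was 0.10 on the log2 scale, or 1.07-fold.

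The values of CTL place each of these genes further. The 3 comparisons share libraries, so their ratios are given side by side and not counted against each other. In the authors' deposited tables Tlr7 was at -0.043 between CTL and LB (adjusted p = 0.802) and at 0.45 between CTL and UPS (adjusted p = 1.65e-06). Mertk was at 0.020 and 0.27 in the same order, Kitl at -0.17 and 0.61, Adrb1 at -0.18 and 0.70, and Ncf1 at -0.058 and 0.26. Between CTL and UPS the adjusted p was 1.37e-05 for Mertk, 0.00989 for Kitl and 0.00897 for Ncf1, while Adrb1 did not pass (adjusted p = 0.0596). None of them passed between CTL and LB. In these 5 genes the ratio against UPS was the larger in size. Il1b was at 0.17 between CTL and LB (adjusted p = 0.854) and at -0.87 between CTL and UPS (adjusted p = 0.0797) according to the authors' deposited tables.

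For a second set of genes the ratios of CTL with LB and with UPS had opposite signs and closer sizes. C1qb was at -0.099 between CTL and LB (adjusted p = 0.194) and at 0.064 between CTL and UPS (adjusted p = 0.304) per the authors' deposited tables. C1qa was at -0.063 and 0.069, Slco2b1 at -0.065 and 0.073, Tmem119 at -0.19 and 0.27, Slc25a17 at 0.069 and -0.065, and Ank2 at -0.24 and 0.17. None of these 6 passed against CTL in either table. For Ywhah and Ckb the larger ratio was that between CTL and LB, at -0.16 (adjusted p = 0.101) and 0.083 (adjusted p = 0.194), against -0.016 and -0.0084 between CTL and UPS in the authors' deposited tables. Tspo was at -0.55 between CTL and LB and at 0.00089 between CTL and UPS.

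**Figure D4:**
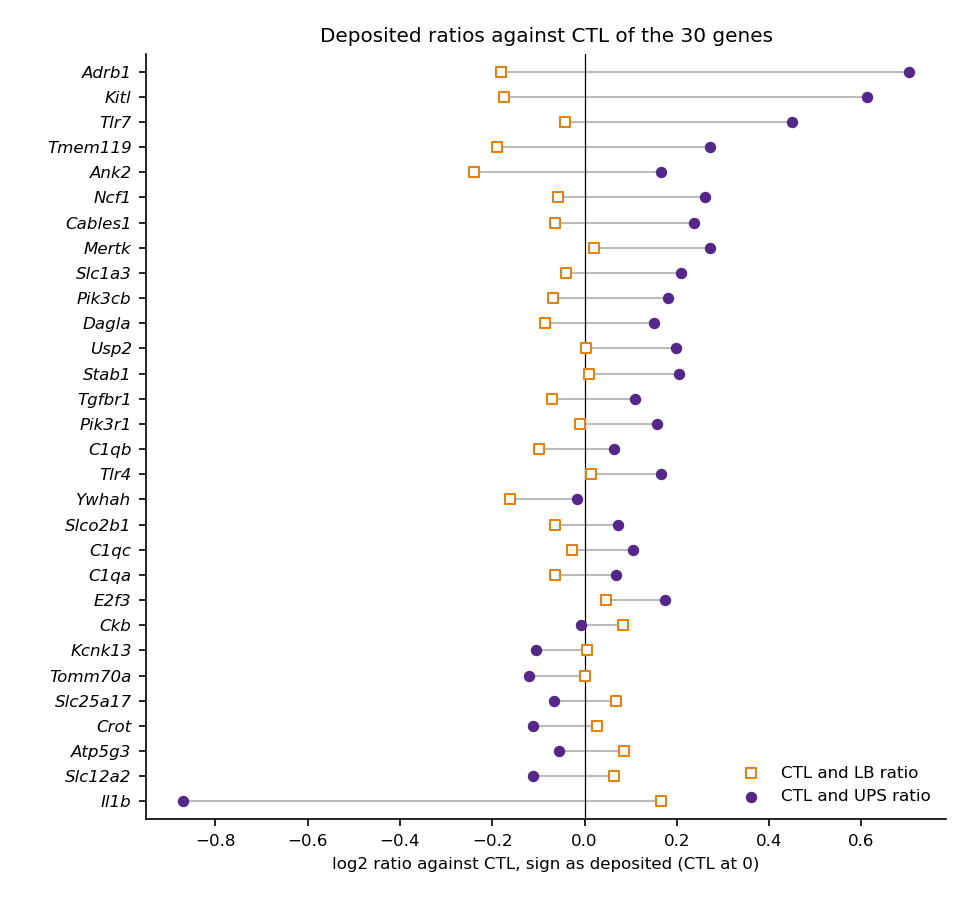
For the 30 genes past the LB and UPS threshold the x axis gives the deposited log2 ratio between CTL and LB (open squares) and between CTL and UPS (filled circles), with CTL at 0 and genes ordered by their LB and UPS ratio. For Tlr7 and Mertk the square lies near 0 and the circle far from it, and for C1qa and Slco2b1 the pair lies on both sides of 0 at like distance.

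Whether CTL differed from the midpoint of LB and UPS was computed for every gene, as a contrast added after the data had been seen. With Benjamini-Hochberg adjustment of the p-values recomputed from the deposited ratios, 0 of 478 genes passed (0%), with a smallest adjusted p of 0.0769, and 56 had an unadjusted p below 0.05. Benjamini-Yekutieli adjustment also gave 0. Among the 30 genes that passed between LB and UPS, the midpoint interval included 0 for 23. The other 7 were Tlr7 (0.20, from 0.097 to 0.31), Mertk (0.15, from 0.074 to 0.22), E2f3 (0.11), Usp2 (0.10), Tlr4, Stab1 and Ywhah, and none of them passed after adjustment. Of these 7, Ywhah alone had a negative midpoint value, with ratios of -0.16 between CTL and LB and -0.016 between CTL and UPS. For most of the 30 genes these data therefore do not resolve on which side of the midpoint CTL lay.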

How the data were processed

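RNA of sorted hippocampal microglia from each pup was counted on the nCounter mouse Glia panel, per the labels' protocols, by hybridising lysate to barcoded probes. The authors deposited 1 table per pair of groups: per the file headers, each gene has a log2 ratio, a linear fold ratio, a p-value and the same p after Benjamini-Hochberg adjustment. Per the series text the authors kept genes above 20 counts and ran nSolver's advanced analysis with batch as a covariate; how counts were normalized, with which housekeeping genes and which version is not given in the sources used here.

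The deposited p-values were adjusted again over the 478 genes (largest gap to the deposited column 0.00166, with the same 30 calls), and no model was refitted. The plan had allowed for values per library, which were not analysed here. Standard errors came from each ratio and its p (two-sided), taking a t distribution with 42 residual degrees of freedom, those of 1 model of 48 libraries with rearing and batch. The median mismatch of a gene's standard errors between tables was 0.133%, against 0.13% with 44 (rearing and sex), 0.14% with 41 or 45, and 0.274% or 0.348% for fits of 2 groups. The batch term stated by the authors decided among the close values. On simulated data for LB and UPS with 478 genes, the steps chose 42, called 60 of 60 changed genes and 3 unchanged ones, and recovered standard errors with a median error of 0.0813%. The simulation used the same model of rearing and batch, and each changed gene was given a difference of several standard errors. The count of changed genes called therefore does not measure sensitivity to smaller differences.

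Genes were matched by symbol to RefSeq (GRCm38.p6) for 476 of 478. No build is named with the tables. Named genes were those past the threshold, those with an adjusted p from 0.05 to below 0.1, the 5 largest ratios of each sign that did not pass, up to 4 members of each list with the smallest p and the member with the narrowest interval, all marker and identity genes measured, and Trem2, Tyrobp, P2ry12, Tmem119, Cx3cr1, Csf1r and Apoe. A few genes fitting this rule are not reported here, and others, which complete small families, were picked once their values were known. There were 37 planned lists, of which the 30 with at least 3 measured genes are plotted. Members, lists and tests were chosen with earlier results of these data known. Alternatives were other adjustments and thresholds, a 1.2-fold minimum, centring, a filter on imprecise genes and other degrees of freedom. Python 3.11.15, pandas 2.3.3, numpy 2.4.6, scipy 1.17.1 and matplotlib 3.10.9 were used.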

Additional observations from a re-analysis of the deposited data

How the results depend on the processing

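No paired analysis was possible because values per library were not analysed here, and leaving out each replicate in turn could not be run for the same reason; library depth is likewise unknown. The count of 30 genes past the threshold (22 positive, 8 negative) was 30 with the deposited adjustment, 28 (22 and 6) with the 3 tables adjusted together, 34 (27 and 7, 29 shared) after centring on the panel median, which shifts ratios by 0.010, and 28 (20 and 8, 25 shared) without the 25% of genes with the largest standard error. Benjamini-Yekutieli adjustment left 13 genes (12 positive and 1 negative) and Bonferroni 11 (11 positive and 0 negative). An adjusted p below 0.1 gave 48 (32 positive and 16 negative), and a minimum of 1.2-fold left 8 (7 positive and 1 negative). With centring, Cx3cr1 (adjusted p = 0.908) and P2rx7 (adjusted p = 0.923), both near 0, turned positive, and Pmp22, Trim35, Stambpl1, Plxnb3 and Ctsd passed. Without the imprecise genes Trim35, Stambpl1 and Ranbp9 passed. The median half-width stayed at 0.101 under both other degrees of freedom.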

Other observations

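Other groups of panel genes, drawn up after their values were seen, held no gene past the threshold and are given as a description. Of 20 genes of pyruvate dehydrogenase and further mitochondrial metabolism, 15 had negative and 5 positive log2 ratios in the authors' deposited table, with a median of -0.042 beside -0.010 for the panel, of which 268 of 478 were negative. Pdhb and Dlat, the E1 beta and E2 subunits of pyruvate dehydrogenase, were at -0.099 (p = 0.0103) and -0.16 (p = 0.011), and Slc25a12, the aspartate-glutamate carrier, had the opposite sign at 0.16 (p = 0.0154). Genes that shape mitochondrial membranes, such as the fusion GTPase Opa1 (0.039) and the fission GTPase Dnm1l (-0.048), had 2 positive and 4 negative ratios.

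Ubiquitin and SUMO genes outside the ligase and proteasome lists numbered 12 negative and 5 positive in the authors' deposited table. Among G protein genes, the adhesion receptor Adgrg1 was at 0.20 and the receptor kinase Grk3 at -0.11. The 16 actin and adhesion genes divided into 8 positive and 8 negative, from the formin Diaph1 at -0.11 to Cttnbp2nl at 0.13. The calmodulin genes Calm2 and Calm3 were at -0.030 and 0.056 in the authors' deposited table; their coding sequences are nearly alike, so the specificity of each probe is uncertain. Between CTL and the midpoint of LB and UPS, small p-values outside the 30 genes belonged to Cd34, a sialomucin of blood vessels and stem cells and 1 of the 2 vascular markers measured (-0.41, p = 0.000483), and to Cysltr1, a leukotriene receptor (-0.20, p = 0.000985), each with an adjusted p above 0.05.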
